A study of Mus musculus with 6 samples.

Results

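The genes described here are 10 regulators of the epithelial state, grouped as genes that the transcription factor ZEB1 represses. Repression by ZEB1 was not tested here for any of them. They are the splicing factor genes Esrp1 and Esrp2, the transcription factor genes Grhl1, Grhl2, Ovol1, Ovol2, Elf3 and Ehf, and the membrane trafficking genes Rab25 and Mal2. They were chosen by name and taken from the deposited value table by the platform's gene annotation. All 10 were measured, by 17 probe sets (groups of short probes for a transcript) out of 12393 genes with a probe set annotated to them alone. Where a gene had several probe sets, the one with the highest mean over the 6 arrays was its main probe set, and the others are given beside it.

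The samples were 3 vector controls and 3 samples with inducible expression of the microRNA miR-34a, all from 344SQ, a metastatic mouse lung cancer line that the labels describe as high in Zeb1 and as a KP line. Biotin-labelled RNA was read on Affymetrix mouse arrays. The design text says that the RNA came from primary tumours in mice injected with these cells, and miR-34a sample titles name tumours too, while other fields describe cultured cells carrying a control vector or overexpressing miR-34a. Neither the inducing agent nor the age or strain of mice is given in the sources used here, and no label states that the replicates were separate animals or cultures. The p-values therefore reflect only how far these samples spread, a spread that could be technical.

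ZEB1 binds E-box sequences in the promoters of epithelial genes and recruits repressor complexes, and it drives the epithelial-mesenchymal transition in many carcinomas. ESRP proteins direct epithelial patterns of alternative splicing. GRHL and OVOL proteins are DNA-binding factors that keep epithelial genes on and, in the case of GRHL2 and OVOL2, repress Zeb1 in turn. ELF3 and EHF are ETS factors of epithelial tissues, RAB25 is a small GTPase of apical recycling, and MAL2 is a membrane protein of transcytosis. ZEB1 also represses the miR-34a gene, so the comparison asks how genes grouped as repressed by the same factor stood when miR-34a was supplied.

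The mature microRNA that was expressed is shown first, with its seed (bases 2 to 8, which pair with target messenger RNAs) in capitals. It lies at chr4:150068473-150068494 on the plus strand of GRCm38.p6 (RefSeq). Both relatives below it carry the same seed.
mmu-miR-34a-5p: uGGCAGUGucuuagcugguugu
mmu-miR-34b-5p: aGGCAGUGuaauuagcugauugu
mmu-miR-449a-5p: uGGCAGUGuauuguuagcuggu

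The promoter of Elf3, the member with the widest range over the arrays, and that of Rab25, a member whose level barely varied, show the motif by which ZEB1 and the SNAI factors are known to bind, CACCTG. Capitals mark it on either strand (CAGGTG on the other). Each sequence runs from 250 bases before to 50 bases after the annotated start and comes from RefSeq, GRCm38.p6. The Elf3 promoter lies at chr1:135258423-135258722 and that of Rab25 at chr3:88548230-88548529, both on the minus strand.
Elf3: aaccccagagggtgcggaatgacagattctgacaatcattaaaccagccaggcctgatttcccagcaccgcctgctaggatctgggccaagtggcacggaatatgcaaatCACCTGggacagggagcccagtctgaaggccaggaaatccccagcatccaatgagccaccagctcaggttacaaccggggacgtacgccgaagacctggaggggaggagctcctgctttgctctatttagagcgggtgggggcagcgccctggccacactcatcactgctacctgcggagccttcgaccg
Rab25: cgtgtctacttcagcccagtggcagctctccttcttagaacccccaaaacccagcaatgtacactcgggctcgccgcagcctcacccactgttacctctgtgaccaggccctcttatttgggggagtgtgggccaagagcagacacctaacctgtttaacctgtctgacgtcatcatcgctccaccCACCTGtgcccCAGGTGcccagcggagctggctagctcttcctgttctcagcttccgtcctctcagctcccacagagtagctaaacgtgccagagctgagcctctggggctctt

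Promoter sequences were matched for 4 members, Elf3, Ovol2, Rab25 and Grhl1 (with 2 promoters). Elf3 held 1 match to CACCTG and Rab25 held 2, 1 on each strand, and these letters were not in the windows of Ovol2 or Grhl1. Of 32851 promoters of the same length, 6640 (20.2%) held the motif on either strand. The palindrome AACCGGTT, bound by GRHL factors, was in 0 of the 5 member promoters and in 0.146% of all promoters. A match is a run of letters and not a measured binding site.

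The table used here gives intensities alone, without detection calls. As a guide to dim signals, the mean levels of 71 probe sets of olfactory, vomeronasal and taste receptor genes, taken as silent in this tissue, had a median intensity of 123.8 and a 95th percentile of 365.2. Of the 10 main probe sets, 3 (Esrp2, Grhl2 and Elf3) lay above the 95th percentile on all 6 arrays, and 6 (Esrp1, Grhl1, Ovol1, Ovol2, Ehf and Rab25) lay below it on all of them. Mal2 was above it on 1 array. Probe sets differ in brightness, so this is a guide and not a detection limit, but a small difference in these 6 genes rests on signals like those of receptors not known to be used here. With 3 arrays in each group, precision was limited throughout. Vector 1 stood apart, at -43.33 on the first principal component of all genes (61.0% of the variance) against -8.75 to -5.42 for the other vector arrays and 16.25 to 21.66 for the miR-34a arrays. Array medians ran from 466.7 to 484.2.

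**Figure D1:**
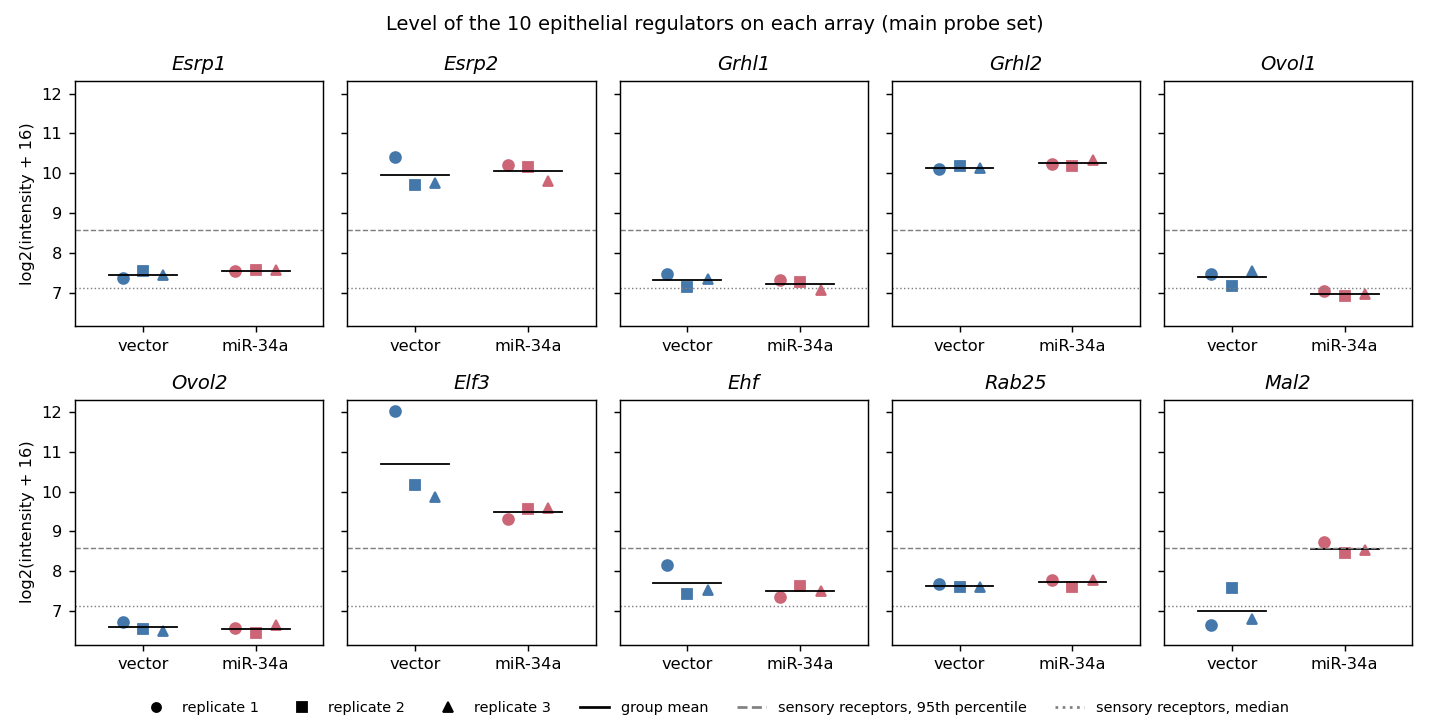
Level of each member's main probe set, as log2(intensity + 16), on the 3 vector arrays (blue) and the 3 miR-34a arrays (red), with group means as black bars and the median and 95th percentile of sensory receptor probe sets as dotted and dashed lines. Mal2 is higher on each miR-34a array, Elf3 is highest on vector 1, and most other members lie at like levels in both groups.

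Of the 10 members, 1 passed the test across all genes, Mal2, which was higher with miR-34a. The test was limma on log2(intensity + 16), two-sided, with Benjamini-Hochberg adjustment over 12393 genes and a threshold of 0.05. It called 11.7% of all genes, 6.50% as higher and 5.25% as lower. With 1 of 10 called, the members stood near that background. The count of 0 lower members compares with 1 member, Ovol1, that was lower at an unadjusted p under 0.05 by limma. In all, 2 of the 10 members had such a p, against 28.2% of all genes. The median change of the members was 0.028 on the log2 scale, against 0.024 over all genes tested, with 5 members above 0 and 5 below. In 4 members the groups did not overlap (Mal2 and Grhl2 higher, Elf3 and Ovol1 lower), a state shown by 34.9% of all genes. In 6 members the change was under 0.12 in size, a cut not fixed beforehand, as it was in 41.4% of all genes.

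Mal2, needed for transcytosis of proteins to the apical membrane, showed intensities of 84.6, 174.0 and 95 on the vector arrays and 407.9, 335.1 and 353.6 on the miR-34a arrays. Every miR-34a array was above every vector array, and vector 2 was the highest of the vector arrays. On the log2 scale the level went from 7.01 ± 0.494 to 8.57 ± 0.141 (SD, n = 3). The rise of 1.57 ± 0.233 (SE), or 2.96-fold (95% interval 2.02 to 4.33), had a limma adjusted p of 0.0107. Mal2 had a single probe set. The call was kept in 4 of the 6 fits that left out 1 array: the change was 1.49 without miR-34a 1 (limma adjusted p = 0.0604) and 1.59 without miR-34a 3 (limma adjusted p = 0.0573). Over 14 alternative settings the limma adjusted p ran from 0.00103 to 0.0604. Since the vector signals lay around the median of the receptor probe sets, the size depends on the pseudocount, with 1.69 at 1 and 1.27 at 64.

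In RNA from bulk samples such as whole tumours, fewer cells of a type and less RNA per cell cannot be told apart. Genes taken as markers of host cells differed between the groups in part, and which cells gave their signals was not tested. Of 8 mast cell markers 4 were called higher (Tpsb2, Cma1, Cpa3 and Fcer1a). Mcpt4 differed by 1.14 and did not pass (limma adjusted p = 0.0763), while Kit, Ms4a2 and Hdc showed differences of 0.03, 0.02 and 0.05. Kit, Ms4a2 and Fcer1a lay below the 95th percentile of the receptor probe sets on all 6 arrays. The summed intensity was 1466 to 1741 on vector arrays and 3765 to 5810 on miR-34a arrays. The other Tpsb2 probe set differed by 0.1, against 3.53 in the main one. Of 12 fibroblast markers 1 was called higher, Thy1, near the 6.50% of all genes, with sums of 13503 to 49193 and 38992 to 56729, the lowest on vector 1. Of 12 macrophage markers 2 were called higher, Fcgr1 and C1qb, and 1 lower, Mrc1 (-0.99, limma adjusted p = 0.00264, called in 6 of 6 fits with 1 array left out), with sums of 18327 to 25400 and 25060 to 28438. The lowest of all deposited intensities was 1, so no marker could be at 0 on any array. Markers of host epithelia did not pass in either direction: 0 of 13 skin keratinocyte genes by limma (0 also at an unadjusted p under 0.05), with sums of 4148 to 6258 and 4050 to 4494, and 0 of 8 mammary and salivary gland genes (1 lower at an unadjusted p under 0.05), with sums of 1849 to 2464 and 1809 to 1860. Most were dim: 9 of the 13 and 7 of the 8 lay below the 95th percentile of the receptor probe sets on all 6 arrays. Each sum leaned on a single gene. Krt14 gave 1761.7 to 3688.4 on the vector arrays and 1682.4 to 2124.4 on the miR-34a arrays. Aqp5, in the gland list, gave 884.6 to 1491.1 and 883.2 to 998.9. Of 10 endothelial genes 0 passed by limma (1 higher and 1 lower at an unadjusted p under 0.05), with sums of 5694 to 9901 and 7963 to 8083. Of 12 alveolar and airway genes 0 passed by limma (3 higher at an unadjusted p under 0.05), with sums of 5484 to 18743 and 21159 to 22619, the lowest on vector 1. Vector 1 was the lowest array in 2 of these 12 genes, and 7 of the 12 were below the same percentile on all 6 arrays. The cell line used is a lung cancer line, so these genes need not mark host cells. The fibroblast and macrophage genes called higher lost their calls without vector 3 and without any 1 of the miR-34a arrays. The part of any of these cells in the Mal2 difference was not tested.

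The genes with the pattern most like that of Mal2 over the 6 arrays were Synpo, which encodes an actin-associated protein of cell processes, the tetraspanin gene Tspan13, and Mical1, which encodes an enzyme that oxidises actin. Their deviations from their own means differed from those of Mal2 by a root mean square of 0.147, 0.169 and 0.18 in log2 units. Synpo ran from 363.6 to 772.8 on the vector arrays, highest on vector 2, and from 1189 to 1567 on the miR-34a arrays. The likeness holds over 6 arrays in 2 groups, and 1456 genes differed between these groups.

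Rab25, the other trafficking gene, gave 188.5, 179.2 and 180.0 on the vector arrays and 205.0, 178.3 and 204.1 on the miR-34a arrays. The groups overlapped, since miR-34a 2 was the lowest of all 6 arrays. The change was 0.09 (95% interval -0.11 to 0.29; limma adjusted p = 0.54), all at signals below those of the brightest receptor probe sets. The intervals of Mal2 (1.02 to 2.11) and Rab25 do not meet, and the difference between these genes was not tested. Among 16 measured relatives of the members and partners in trafficking, such as the RAB11 genes, 0 were called by limma in either direction, with 3 higher and 1 lower at an unadjusted p under 0.05, and their median change was -0.023.

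**Figure D2:**
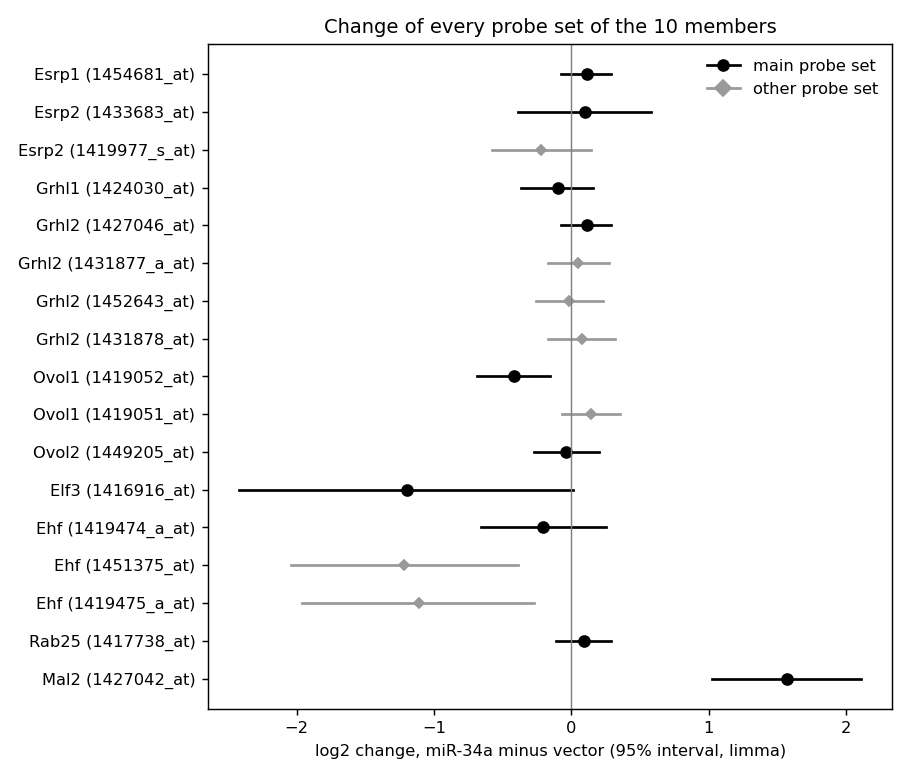
Log2 change (miR-34a minus vector) of each of the 17 probe sets of the members, with the 95% interval from limma; black circles are main probe sets and grey diamonds the others. The interval of Mal2 lies above 0, those of the main Ovol1 probe set and of the 2 dimmer Ehf probe sets lie below 0, and that of Elf3 ends at 0.01.

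Neither ETS factor gene passed the test over all 6 arrays, and vector 1 held the highest value of both. Elf3 gave 4179.8, 1136.6 and 923.2 on the vector arrays and 621.0, 741.8 and 755.0 on the miR-34a arrays. Every miR-34a array was below every vector array, and vector 1 lay far above vector 2 and vector 3. The log2 level was 10.69 ± 1.17 in vector and 9.49 ± 0.152 in miR-34a samples (SD, n = 3). The change of -1.20 ± 0.516 (SE) did not pass (limma adjusted p = 0.182; 95% interval -2.42 to 0.01). Without vector 1 the difference was smaller and passed, at -0.53 (limma adjusted p = 0.0263, against 0.0263 to 0.357 over 15 alternative settings). Without vector 3 it was -1.61 and did not pass.

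Ehf, the closest relative of Elf3 among the members, was measured by 3 probe sets that differed. The main one, 1419474_a_at, gave 270.1, 156.9 and 168.5 on the vector arrays and 148.6, 183.3 and 165.0 on the miR-34a arrays. Its groups overlapped, with vector 1 the highest array, and its change was -0.21 ± 0.194 (SE; limma adjusted p = 0.54). The second, 1451375_at, gave 248.4, 117.2 and 71.6 against 48.4, 44.9 and 46.7. The third, 1419475_a_at, gave 151.4, 85.6 and 37.2 against 29.4, 29.3 and 27.7. In both of these each miR-34a array was below each vector array, vector 1 was highest and the miR-34a arrays lay within 0.08 log2 units of each other. Their changes were -1.22 ± 0.351 and -1.11 ± 0.361 (SE), with limma adjusted p of 0.0618 and 0.0869 in a fit over all probe sets, so neither passed. All of these signals were below the 95th percentile of the receptor probe sets. Without vector 1 the difference of the main probe set was 0.02. For 1451375_at, vector 2 and vector 3 (117.2 and 71.6) still lay above every miR-34a array (44.9 to 48.4). The same held for 1419475_a_at, at 85.6 and 37.2 against 27.7 to 29.4. No fit without vector 1 is given for these dimmer probe sets.

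**Figure D3:**
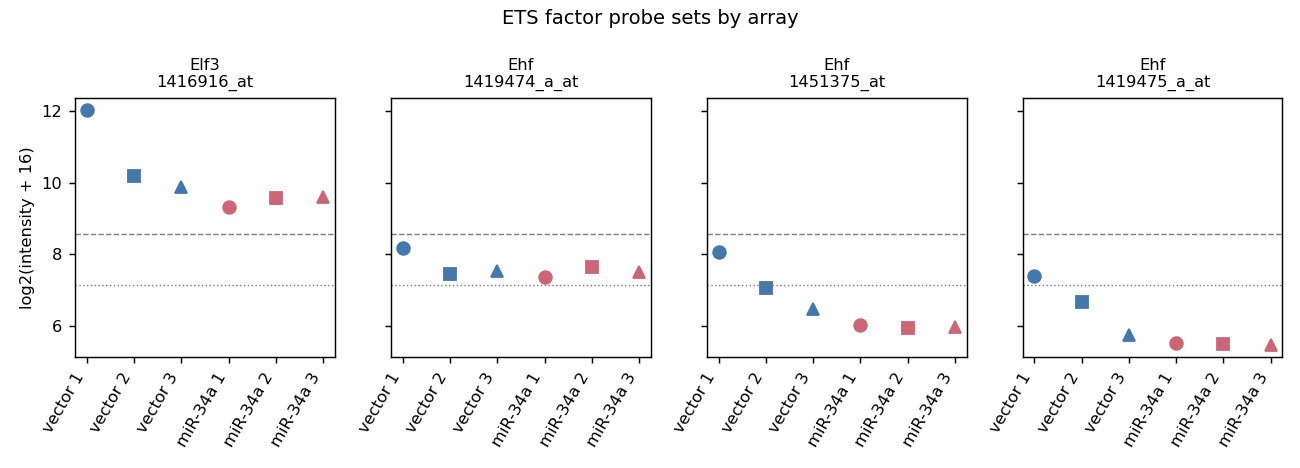
Log2(intensity + 16) of the Elf3 probe set and the 3 Ehf probe sets on each array, vector in blue and miR-34a in red, with the median (dotted) and 95th percentile (dashed) of sensory receptor probe sets. Vector 1 is the highest array in all 4 panels, and Elf3 is the one that stays above the dashed line on every array.

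Of the splicing factor genes, only Esrp2 had a main probe set above the receptor 95th percentile on all 6 arrays. This probe set gave 1342.0, 823.0 and 845.1 on the vector arrays and 1160.0, 1125.8 and 879.6 on the miR-34a arrays. The groups overlapped, with vector 1 the highest and vector 2 the lowest of all arrays. The change was 0.10 (95% interval -0.39 to 0.58; limma adjusted p = 0.803), and the difference of the second probe set was -0.22 (limma adjusted p = 0.394). That second probe set was dimmer, at 271.4 to 417.4, and passed the same percentile on 1 array. Without vector 1 the difference of the main probe set was 0.32 and did not pass. Esrp1 gave 149.5, 169.7 and 156.4 against 169.5, 173.9 and 172.6. Its groups met at vector 2 and miR-34a 1, and its change of 0.11 (95% interval -0.08 to 0.29) did not pass (limma adjusted p = 0.424).

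The arrays do not resolve splice forms, but 13 genes whose pre-mRNA the ESRP proteins splice were measured at the gene level. Of these 1 was called higher, Exoc7, which encodes a subunit of the exocyst, and 0 lower (2 lower at an unadjusted p under 0.05 by limma), with a median change of 0.141. A count of 1 in 13 is near the 6.50% of all genes called higher. Exoc7 changed by 0.66 ± 0.0936 (SE; limma adjusted p = 0.00954), and kept its call in 5 of the 6 fits that left out 1 array, the exception being the fit without miR-34a 3. Its groups did not overlap.

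Grhl2, which encodes the best known activator of epithelial junction genes among the members, varied least of the 3 brighter members. Its main probe set gave 1094.5, 1136.4 and 1111.0 on the vector arrays and 1177.6, 1149.1 and 1282.6 on the miR-34a arrays. Each miR-34a array was above each vector array by a small step, a change of 0.11 ± 0.079 (SE; limma adjusted p = 0.428), with a 95% interval of -0.08 to 0.29, whose upper end is 1.23-fold. The differences of the other 3 probe sets were 0.05, -0.02 and 0.08, with overlapping groups. Grhl1, a relative prominent in the epidermis, gave 160.4, 125.7 and 145.2 against 142.1, 137.9 and 117.6. Its groups overlapped, and its change was -0.10 (95% interval -0.37 to 0.16; limma adjusted p = 0.606).

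Ovol1, a zinc finger repressor of mesenchymal genes, came nearest to the threshold among the members that did not pass. Its main probe set gave 160.1, 128.4 and 169.9 on the vector arrays and 115.4, 104.4 and 108.3 on the miR-34a arrays. Each miR-34a array was below each vector array. The change was -0.42 ± 0.112 (SE; limma adjusted p = 0.0541; 95% interval -0.69 to -0.16). It passed without vector 2, at -0.53 (limma adjusted p = 0.0267, against 0.00955 to 0.369 over 15 alternative settings). The second probe set, with signals of 49.4 to 65.1, differed in the other direction, by 0.14 (limma adjusted p = 0.369). Ovol2, its relative, gave 89.6, 76.9 and 74.3 against 78.6, 70.8 and 84.3. The groups overlapped below the median of the receptor probe sets, and the change was -0.04 (95% interval -0.27 to 0.20; limma adjusted p = 0.856).

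**Figure D4:**
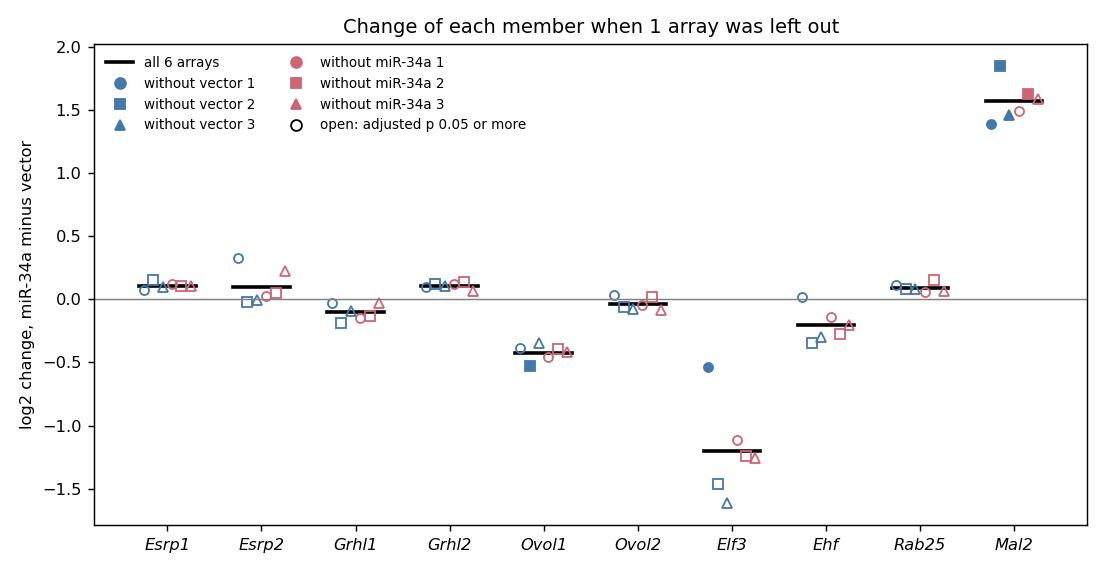
Log2 change of each member over all 6 arrays (black bar) and with 1 array left out (blue, a vector array; red, a miR-34a array; filled symbols have a limma adjusted p under 0.05). Mal2 stays between 1.39 and 1.85, while Elf3 runs from -1.61 to -0.53, the latter without vector 1.

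Upstream of the members, Zeb1 itself gave 1382.5, 1677.2 and 1645.8 on the vector arrays and 1555.8, 1648.1 and 1573.6 on the miR-34a arrays. The groups overlapped and vector 1 was lowest. The change was 0.03 ± 0.0976 (SE; 95% interval -0.20 to 0.26; limma adjusted p = 0.896), and the difference of the other Zeb1 probe set was -0.17. Zeb2, its relative, gave 89.3, 269.0 and 191.2 against 303.1, 272.3 and 289.9. Each miR-34a array was above each vector array, but the change of 0.73 ± 0.327 (SE) did not pass (limma adjusted p = 0.199), and it was 0.32 without vector 1. Of 8 EMT repressor genes, 2 were called higher, Twist1 and Twist2, and 0 lower (also 0 at an unadjusted p under 0.05 by limma), beside 6.50% and 5.25% of all genes. Their median change was 0.532, and 0.31 without vector 1, which was the lowest of the 6 arrays in all 8 of them and in 21.6% of all genes. Twist1 changed by 1.56 ± 0.323 and Twist2 by 1.49 ± 0.343 (SE), 1.15 and 1.11 without vector 1. With 1 array left out at a time, Twist1 kept its call in 3 of 6 fits and Twist2 in 2. Both are also expressed by fibroblasts, and vector 1 was the lowest array for each, as it was for the summed fibroblast markers; the part of host cells in these changes was not tested.

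Downstream, 33 epithelial genes listed as bound or held on by GRHL2, OVOL, ELF3 and EHF were measured, a link that was not tested here. Among them 3 were called higher and 1 lower, beside the 6.50% and 5.25% of all genes. Of the 33 genes, 17 were below 0 and 16 above, around a median close to 0, and 19 were highest on vector 1. The tight junction gene Ocln gave 279.7, 410.2 and 323.2 on the vector arrays and 1508.4, 1289.2 and 1309.7 on the miR-34a arrays. The groups were far apart, a change of 1.98 ± 0.145 (SE; limma adjusted p = 0.00201). Spint1, which encodes an inhibitor of membrane serine proteases, went from 204.2, 265.8 and 252.9 to 516.2, 728.3 and 711.7, a change of 1.37 ± 0.159 (SE; limma adjusted p = 0.00615). Both kept their calls without any 1 array. Marveld2, which encodes tricellulin of tricellular junctions, changed by 0.49 (limma adjusted p = 0.0467) and lost its call in each of the 6 fits that left out 1 array. The growth factor gene Tgfa fell by 0.61 (limma adjusted p = 0.0299), a call kept in 2 of those 6 fits, and the differences of its other 2 probe sets were -0.15 and 0.01.

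Cdh1 and Vim, common markers of the epithelial and the mesenchymal state, varied little between the groups. Cdh1, which encodes E-cadherin, gave 12237 to 13563 on the vector arrays and 13142 to 13878 on the miR-34a arrays. The change was 0.08 (95% interval -0.11 to 0.27; limma adjusted p = 0.584). Vim, which encodes vimentin, gave 18567 to 21238 and 20567 to 21643, a change of 0.09 (95% interval -0.10 to 0.29; limma adjusted p = 0.524). Epcam, an epithelial adhesion gene, gave 304.8, 977.0 and 1463.4 against 1001.3, 1142.2 and 950.7, with a wide interval of -0.76 to 1.61 (limma adjusted p = 0.638), and vector 1 was its lowest array. Among 18 mesenchymal genes 0 were called higher (4 at an unadjusted p under 0.05 by limma) and 2 lower, beside 6.50% and 5.25% of all genes. Vector 1 was the lowest array in 11 of the 18. Without it 3 were called higher, when 1247 of all genes were, and with array weights 5 were, when 1919 of all genes were. The median change was 0.237, and 0.18 without vector 1. The lower ones were S100a4, a calcium-binding protein gene of motile cells, at -0.95 (limma adjusted p = 0.0119), and Bmi1, a Polycomb gene, at -0.48 (limma adjusted p = 0.0205). Their calls were kept in 4 and 3 of the 6 fits that left out 1 array.

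**Figure D5:**
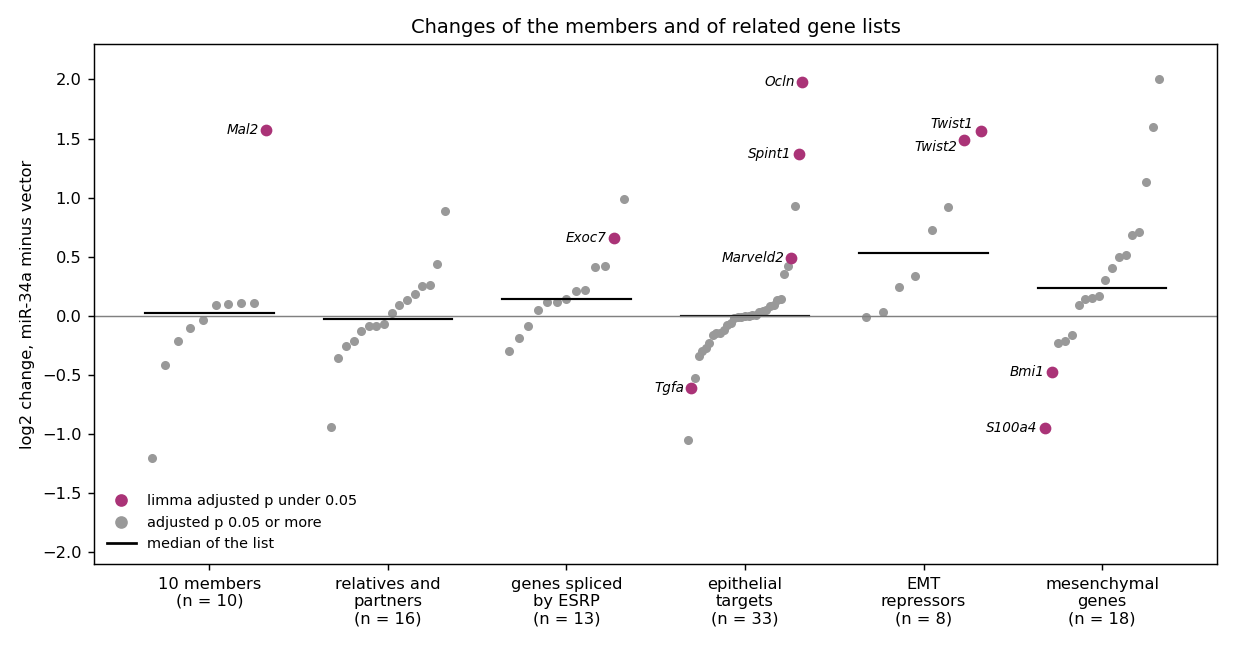
Log2 change (miR-34a minus vector) of the members and of related genes, 1 point per gene by its main probe set, with purple points for a limma adjusted p under 0.05 and black bars for list medians. In the members, Mal2 is the single purple point, and in the epithelial targets Ocln, Spint1, Marveld2 and Tgfa are, around a median near 0.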

How the data were processed

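The values in the deposited table are microarray intensities on a linear scale. How the authors summarised and normalized them is not stated in the sources used here. Of 22690 probe sets, 64 were controls. Names came from the platform annotation, brought up to date by Entrez identifier with RefSeq's GRCm38.p6 table: 20393 probe sets had 1 symbol, 691 had several and 1606 were not listed. A gene's main probe set had the highest mean of log2(intensity + 16). Groups and replicate numbers came from the titles. All 12393 genes were fitted at once in limma 3.58.1 (lmFit, eBayes; R 4.3.3) without block or covariate, which was tested on simulated data. Other probe sets were fitted over all 20380 used.

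The members and gene lists were chosen with earlier results of these data known, so lists are described by counts and medians. The text names all members, up to 4 called genes of each list and direction, Zeb1, Zeb2, Cdh1, Epcam and Vim, and the 3 genes most like each called member in pattern. The alternatives tried were quantile normalization or centring on array medians, dropping genes in the lower part by level, a pseudocount of 1 or 64, averaging a gene's probe sets or taking others singly, a robust trend in the variance, weights for arrays, a block on replicate number, and dropping each array in turn.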

Additional observations from a re-analysis of the deposited data

How the results depend on the processing

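Directions of Esrp1, Grhl1, Elf3, Rab25 and Mal2 were kept under every alternative run. Esrp2 turned to -0.061 when its probe sets were averaged and to -0.22 in the second of them, and ran from -0.024 (without vector 2, and -0.005 without vector 3) to 0.323 with 1 array left out. Grhl2 turned to -0.016 in 1 other probe set and Ovol1 to 0.137 in its second. Ovol2 turned to 0.053 with array weights and ran from -0.084 to 0.034 with 1 array left out (0.020 without miR-34a 2), and Ehf ran from -0.344 to 0.020. With probe sets averaged, Ehf changed by -0.845 (limma adjusted p = 0.109) and Ovol1 by -0.142 (limma adjusted p = 0.326). Ovol1 passed with a robust variance trend (-0.422) and array weights (-0.484), and ran from -0.530 to -0.348 with 1 array left out; Elf3 ran from -1.612 to -0.532 and Mal2 from 1.389 to 1.847. Mal2 was not tested where the lower part of genes was left out, so 0 members were higher there, and the count ran from 0 to 1 with 1 array left out. Members called lower numbered 1 with the robust trend, 1 with array weights, and 0 to 1 with 1 array left out. All genes called higher and lower numbered 1919 and 1319 with array weights, 250 and 272 with the replicate block, and 98 to 1247 and 128 to 886 with 1 array left out. Same-numbered arrays did not deviate together (correlations of -0.168, -0.094 and -0.081 across genes). With 3 arrays in each group and vector 1 standing apart, this cannot settle whether the numbers pair the samples. In the replicate block fit Mal2 kept its call (limma adjusted p = 0.0368). EMT repressors called higher numbered 0 with the lower part of genes left out, the robust trend or the block, 4 with array weights and 0 to 2 with 1 array left out (0 to 1 lower). Epithelial targets called lower numbered 0 with the mean of all probe sets or the block and 0 to 1 with 1 array left out. Of 300 further list counts, 254 stayed within 1.5 times the count given and 46 did not. The causes were not tested. Dim signals limit 6 of the 10 members, as above, and Mal2 too was above the 95th percentile of the receptor probe sets on only 1 array.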

Other observations

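Vector 1 was the highest of the 6 arrays in 5 of the 10 members and in 19 of the 33 epithelial target genes, against 30.0% of all genes. It was the lowest in 3 members and 7 target genes, against 21.6% of all genes. Among genes taken as host cell markers it was the lowest in 11 of 12 fibroblast, 10 of 12 macrophage, 5 of 10 endothelial and 2 of 8 mast cell genes. Which cells gave these signals was not tested, and the mesenchymal genes had vector 1 as the lowest array in 11 of 18. Among epithelial markers vector 1 was the lowest in 2 of 12 alveolar and airway, 1 of 8 mammary and salivary and 0 of 13 keratinocyte genes. The genes that follow were chosen after their values were seen. The tight junction gene Tjp3 gave 900.1 on vector 1 and 129.6 to 215.2 on the others. The receptor gene Erbb3 gave 2281.6 there against 569.2 to 743.8. Mal, a relative of Mal2 in apical transport, gave 4455.5 there against 526.6 to 871.5, and so stood opposite to Mal2, whose lowest array was vector 1.

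Other genes were low on vector 1. Cd24a, a surface glycoprotein gene of epithelial and immune cells, gave 1839.8 against 12064.0 to 12581.5. The surfactant gene Sftpb gave 529.2 against 9137 to 15107, and Cdh2, which encodes N-cadherin, 62.0 against 976.5 to 2053.6. The difference of Cdh2 was 2.00 over all arrays (limma adjusted p = 0.216) and 0.77 without vector 1 (limma adjusted p = 0.0167).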
